A study of Mus musculus with 14 samples.

Results

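The glucocorticoid-responsive genes described here were 10 genes, Fkbp5, Tsc22d3, Zbtb16, Klf9, Sgk1, Mt1, Mt2, Cebpd, Errfi1 and Nr3c1, taken by gene symbol from the 55487 genes of the count table. All 10 were among the 16915 genes that passed the filter on low counts, which kept a gene with a CPM (counts scaled to the library's effective size) above 1 in at least 3 libraries. RNA came from caudal intervertebral discs (IVDs) of male mice, and the 5 discs of 1 mouse were pooled into 1 library. The first cohort held 3 db/db mice, which carry a leptin receptor mutation in both copies, and 3 db/+ heterozygotes as non-diabetic controls, all 12 weeks old. The second cohort was C57BL/6J, with 4 STZ-HFD mice and 4 wild-type Con+Veh mice. STZ-HFD mice ate a high-fat diet for 4 to 6 weeks, received a single 100 mg/kg dose of streptozotocin (STZ), a toxin of pancreatic beta cells, and ate the diet for 12 weeks more. Con+Veh mice received vehicle and standard chow. The leptin receptor mutation of db/db mice is present in every cell from conception, and no glucocorticoid treatment is listed for any group.

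Glucocorticoids are adrenal steroid hormones, of which corticosterone is the main one in mice. They bind the glucocorticoid receptor, encoded by Nr3c1, which leaves its chaperone complex, enters the nucleus and switches on genes with a glucocorticoid response element (GRE). Synthetic and natural glucocorticoids restrain inflammation and shift fuel use in many tissues, and long exposure thins bone and cartilage. The receptor gene and its induced genes were read here in whole disc tissue, where more RNA per cell and more cells of a type cannot be told apart.

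The libraries held 16076908 to 58943169 counts in genes, of which ribosomal RNA took 28.1% to 60.2%. Disc and cartilage markers such as Acan and Col2a1 were detected in every library. Their summed level over 9 genes was 5298 to 23256 CPM in the db/db cohort and 685 to 3347 CPM in the other. Markers of skeletal muscle, summed over 10 genes, reached 9182 to 25903 CPM in the second cohort and exceeded the disc markers in every library there. Levels of groups were compared only within a cohort, while correlations ran over all 14 libraries. The p-values measure the spread between these mice, 1 library each. A gene was called where the limma test with Benjamini-Hochberg adjustment over all 16915 genes gave an adjusted p under 0.05 and the level differed at least 2-fold.

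In db/db discs the metallothionein genes Mt1 and Mt2 were higher than in db/+ discs, 2.45-fold and 3.45-fold, and none of the other 8 genes was called. In STZ-HFD discs none of the 10 was called. Thus 2 of 10 genes were called in db/db, where 1.66% of all genes tested were called (1.23% higher), or 1.93% with no fold minimum, which adds none of the 10. In STZ-HFD 0 of 10 were called, where 2.61% of all genes were (1.30% higher and 1.31% lower), or 3.45% with no fold minimum. At an unadjusted p under 0.05, 3 of 10 passed in db/db (all genes, 21.1%) and 1 of 10 in STZ-HFD (all genes, 17.9%). In STZ-HFD, edgeR and DESeq2 also called 0 of the 10. The log2 fold change was positive for 9 of 10 genes in db/db, with a median of 0.43 against -0.04 over all genes tested, of which 47.3% were positive. In STZ-HFD it was positive for 7 of 10, with a median of 0.24 against -0.04 over all genes, of which 47.2% were positive.

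**Figure D1:**
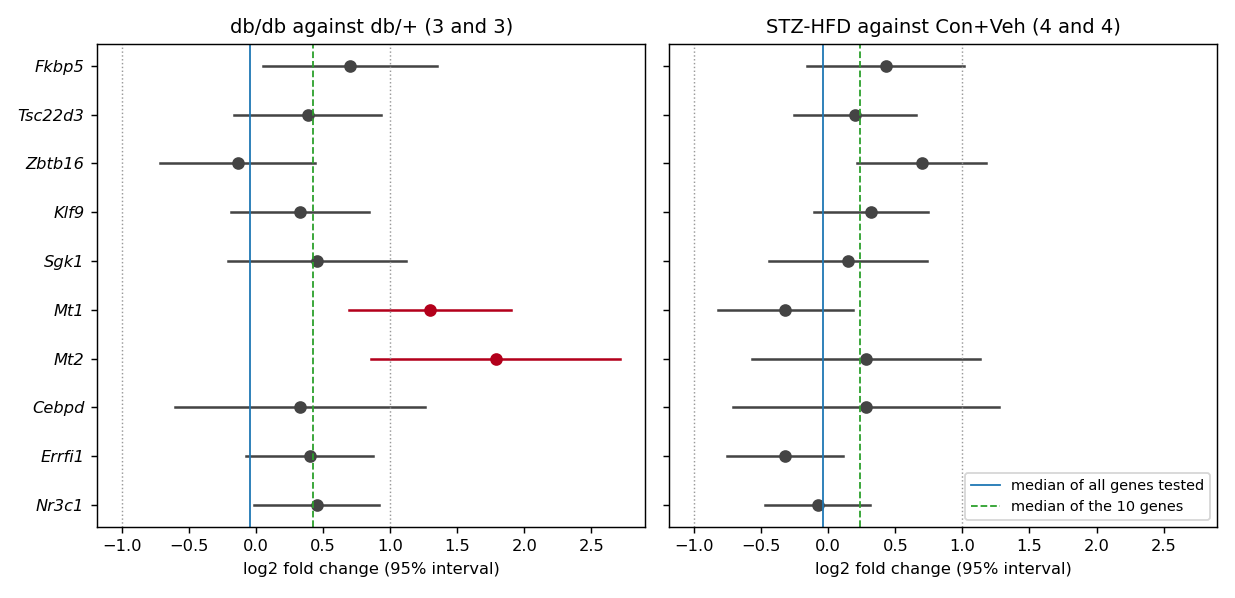
Log2 fold changes (x axis) of the 10 genes with 95% intervals in db/db (left) and STZ-HFD (right), from the limma fit. Mt1 and Mt2 in db/db, in red, are the called genes, the dotted lines mark 2-fold, and the other 8 intervals in db/db run from -0.71 to 1.35.

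The metallothioneins are small cysteine-rich proteins that bind zinc and copper and buffer oxidants. Their genes respond to glucocorticoids through GREs, and to zinc through metal response elements (MREs) bound by the factor MTF1. Mt2 (GRCm38, chr8:94172664-94173568, plus strand) and Mt1 (chr8:94179082-94180327, plus strand) lie next to each other. A promoter window of each is shown because these are the called genes and because both classes of element were searched for in these windows. The windows are RefSeq promoters on GRCm38.p6, 250 bases before to 50 after the start site, and capitals mark the MRE core, TGCGCNC or TGCACNC on either strand.
Mt1, chr8:94178839-94179138: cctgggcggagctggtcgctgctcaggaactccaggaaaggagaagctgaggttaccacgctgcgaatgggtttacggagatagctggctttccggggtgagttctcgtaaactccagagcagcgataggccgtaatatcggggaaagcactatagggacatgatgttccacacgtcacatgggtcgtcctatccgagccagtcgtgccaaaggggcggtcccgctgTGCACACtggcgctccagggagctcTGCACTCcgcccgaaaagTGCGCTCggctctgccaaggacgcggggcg
Mt2, chr8:94172368-94172667: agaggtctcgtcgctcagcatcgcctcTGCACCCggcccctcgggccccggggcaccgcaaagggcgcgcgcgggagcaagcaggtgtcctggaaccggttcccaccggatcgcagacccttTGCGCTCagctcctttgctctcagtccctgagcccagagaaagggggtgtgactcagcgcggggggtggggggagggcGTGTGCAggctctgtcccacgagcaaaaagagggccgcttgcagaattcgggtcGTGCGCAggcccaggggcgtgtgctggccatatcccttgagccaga
The Mt1 window held 3 MRE cores and the Mt2 window 4, and in both windows some cores lay after the start site. The Mt2 window ends at 94172667 and the gene begins at 94172664. The start site of that window thus lies before the annotated gene, and the window covers little of the gene. Sequence outside the windows was not searched, so these counts describe the windows only. At least 1 core was found in 25.7% of all 32851 promoter windows, and 4 or more in 0.517%. The full GRE palindrome, AGAACA and TGTTCT with 3 bases between them, was in neither window. The shorter GRE core, GNACA and TGTNC with 3 bases between them, which the palindrome contains, is present in 0.475% of all windows. It was found once in the Mt1 window, with its first base 94 bases before the start site.

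Mt1 reached 37.4, 57.0 and 29.3 CPM in the db/+ libraries and 79.4, 104 and 121 CPM in the db/db libraries. Every db/db library was above every db/+ library. Mt1 was 2.45-fold higher (log2 fold change 1.30, SE 0.29, 95% interval 0.69 to 1.90), with an adjusted p of 0.033 by limma. In the second cohort Mt1 stood at 19.0, 56.1, 48.1 and 58.4 CPM in Con+Veh and at 43.4, 30.5, 43.6 and 39.6 CPM in STZ-HFD, so that the groups overlapped. Its log2 fold change there was -0.32 (SE 0.24, 95% interval -0.83 to 0.18), with an adjusted p of 0.53 by limma. The response of Mt1 differed between the models, being lower by 1.62 on the log2 scale in STZ-HFD (difference -1.62, SE 0.37, adjusted p = 0.039 by limma). It was 1 of 10 genes called in that test of the difference, against 1.77% of all genes tested (0.822% lower), and 4 of 10 had an unadjusted p under 0.05 there, against 17.3% of all genes. The difference of Mt1 was called in 3 of 14 fits that left out 1 library, with adjusted p from 0.021 to 0.16, and by neither edgeR nor DESeq2. Over all genes the fits that left out 1 library called 4 to 425 differences, edgeR 5 and DESeq2 254.

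Mt2 followed the same course in the db/db cohort. It reached 23.4, 31.2 and 11.7 CPM in db/+ and 77.8, 56.7 and 90.4 CPM in db/db. These groups did not overlap either, and Mt2 was 3.45-fold higher (log2 fold change 1.79, SE 0.44, 95% interval 0.86 to 2.72, adjusted p = 0.045 by limma). In Con+Veh it stood at 3.75, 27.8, 14.5 and 26.9 CPM and in STZ-HFD at 19.8, 14.3, 35.0 and 15.2 CPM. This amounted to 0.28 on the log2 scale (SE 0.40, 95% interval -0.57 to 1.13), and the first Con+Veh library was by far the lowest of the 8. For Mt2 the difference of the models was -1.51 (SE 0.60), with an adjusted p of 0.20 by limma.

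Both metallothionein calls stood close to the threshold. The edgeR quasi-likelihood test called neither (adjusted p = 0.23 and 0.26), nor any other gene in db/db, where it gave an unadjusted p under 0.05 for 1891 genes. DESeq2 called Mt1 (adjusted p = 0.035) and left Mt2 at 0.051. Without quality weights the adjusted p was 0.18 for Mt1 and 0.20 for Mt2 by limma. Leaving out db/db replicate 3 raised it to 0.11 and 0.14, and leaving out any other db/+ or db/db library took the call from Mt2, and from Mt1 for all but db/+ replicate 2. The fits without 1 of these libraries called 21 to 143 genes in all in db/db, against 281 with every library. Without STZ-HFD replicate 1, which enters through the shared spread, Mt2 stood at 0.052. The log2 fold change stayed between 0.93 and 1.60 for Mt1 and between 1.33 and 2.66 for Mt2 over all 28 alternatives.

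**Figure D2:**
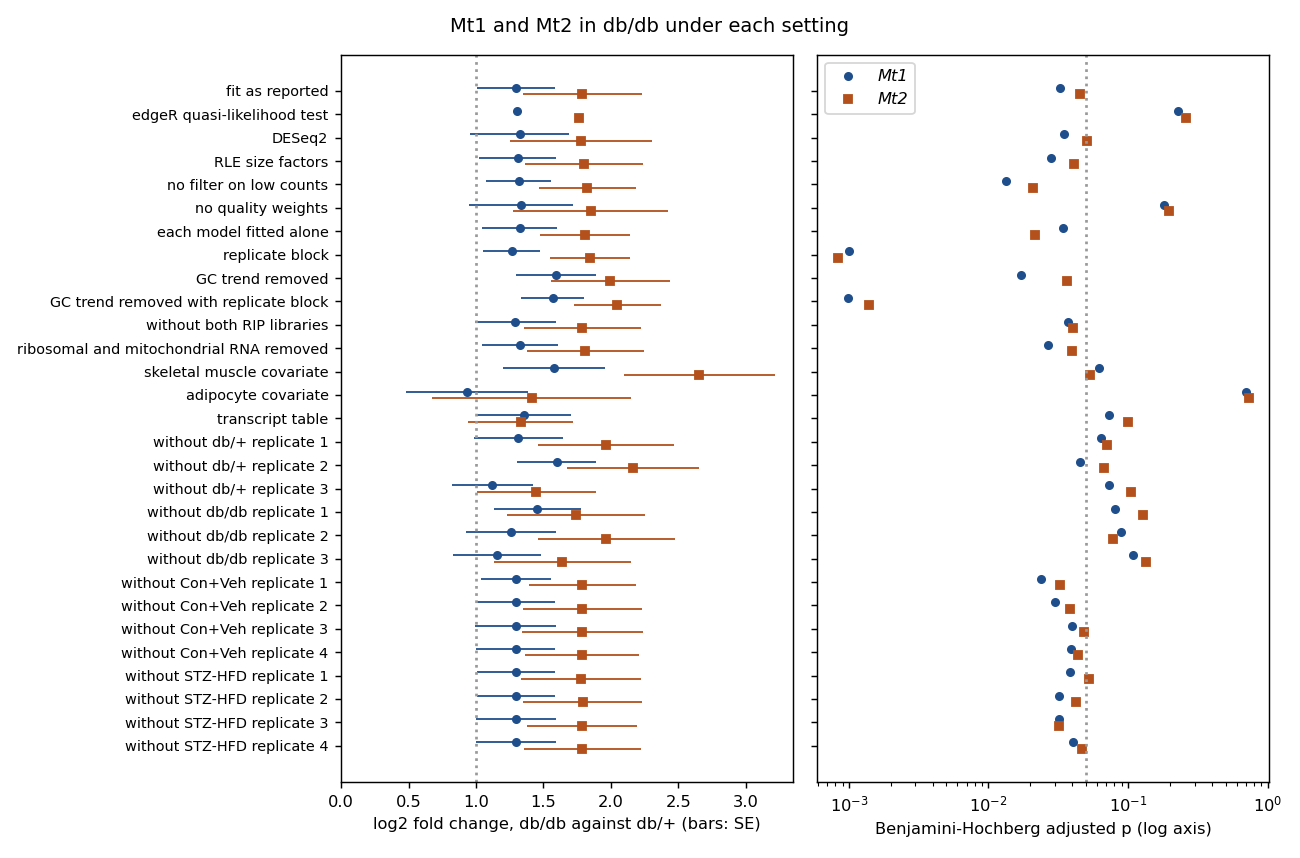
Log2 fold change with SE (left; edgeR gives no SE) and adjusted p on a log axis (right) of Mt1 (circles) and Mt2 (squares) in db/db under the reported fit and each alternative. Dotted lines mark 2-fold and an adjusted p of 0.05, and the points lie on the positive side throughout while the adjusted p runs from 0.00083 to 0.74.

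Other cell markers moved in db/db together with the metallothioneins. Of 7 adipocyte markers, 6 were positive and 4 were called higher (Adipoq, Plin1, Fabp4 and Retn). Cfd, the most abundant of the 7, went the other way, from 215 ± 93 CPM in db/+ to 142 ± 49 CPM in db/db (SD, n = 3 each, log2 fold change -0.60), and was not called. The 7 summed to 341 to 625 CPM in db/db against 196 to 411 CPM in db/+, so that the groups overlapped, with none of the 7 at 0 in any library. Skeletal muscle markers summed to 3220 to 5471 CPM in db/db against 4954 to 9454 CPM in db/+, with 1 of 10 called lower. Of 6 endothelial markers, 5 were positive and Tek was called higher (log2 fold change 1.31, adjusted p = 0.012 by limma). Their sums did not overlap, at 232 to 255 CPM in db/db against 137 to 201 CPM in db/+, none of the 6 was at 0 in any library, and their part in the result was not tested. With the adipocyte level as a covariate the log2 fold change was 0.93 for Mt1 and 1.41 for Mt2 (adjusted p = 0.70 and 0.74 by limma), in a fit that called 1 gene in all. With the muscle level as a covariate it was 1.58 and 2.66 (adjusted p = 0.062 and 0.053 by limma).

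The transcript estimates gave a second count of the same reads. For Mt1 they amounted to 30.7% of the gene counts, and for Mt2 to 3.98%. The log2 fold change in db/db from these estimates was 1.36 for Mt1 and 1.33 for Mt2 (adjusted p = 0.073 and 0.10 by limma). Mt2 shares 432 exon bases with the antisense gene Gm45774, which held 115 counts against 23160 for Mt2. The strand setting of the counting is not given in the sources used here, so reads of overlapping genes on opposite strands may not have been told apart.

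Zinc handling was described by a list of 10 genes, of which Mt4 did not pass the filter. In db/db, Mt1, Mt2 and Slc30a1 were called higher and none lower (all genes, 1.23% and 0.432%), and the list median was -0.18 against -0.04 over all genes. Mt3, the other metallothionein tested, went the other way, from 8.1 ± 6.2 CPM in db/+ to 1.3 ± 0.9 CPM in db/db without overlap (SD, n = 3 each, log2 fold change -2.65, adjusted p = 0.080 by limma), and was not called. Slc30a1, which exports zinc from the cell and is another MTF1 target, stood at 7.2, 6.2 and 6.2 CPM in db/+ and 9.5, 16.5 and 19.9 CPM in db/db. These groups did not overlap (log2 fold change 1.17, SE 0.29, adjusted p = 0.045 by limma), and edgeR gave an adjusted p of 0.21. The call of Slc30a1 held in 6 of 14 fits that left out 1 library, with adjusted p up to 0.15. It held in 5 of 13 other alternatives. Slc39a14, a zinc importer, fell by 0.89 on the log2 scale with an adjusted p of 0.043 by limma, short of the 2-fold minimum, from 42.3 ± 4.7 CPM to 22.8 ± 3.8 CPM (SD, n = 3 each). Mtf1 itself stood at 16.7 ± 1.0 CPM in db/+ and 14.9 ± 2.3 CPM in db/db (SD, n = 3 each). In STZ-HFD 0 of the 9 genes tested were called.

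Nr3c1 (chromosome 18), the receptor, reached 52.6, 55.3 and 42.2 CPM in db/+ and 70.6, 59.2 and 78.1 CPM in db/db. The db/db libraries all lay above the db/+ libraries, but the change was small and not called (log2 fold change 0.45, SE 0.22, 95% interval -0.01 to 0.92, adjusted p = 0.25 by limma). STZ-HFD libraries had 61.5, 42.0, 69.7 and 57.7 CPM against 50.4, 92.7, 61.6 and 59.5 CPM in Con+Veh, which amounts to -0.08 on the log2 scale (95% interval -0.47 to 0.31). The upper bound of the interval in db/db amounts to 1.89-fold. Groups that did not overlap, with db/db above, were found for 5 of the 10 genes (Nr3c1, Mt1, Mt2, Sgk1 and Errfi1) and for 14.1% of all genes. In STZ-HFD the groups overlapped for all 10 genes, and 1.97% of all genes lay without overlap above Con+Veh and 2.77% below.

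A list of 16 genes for the receptor, its chaperones, coregulators and the enzymes that activate or inactivate the hormone included Nr3c1. Among 15 that could be tested, 1 was called higher in db/db (Ptges3; all genes, 1.23% higher) and 1 lower in STZ-HFD (Fkbp4; all genes, 1.31% lower). The list medians were -0.12 and -0.15, against -0.04 over all genes in each model. Of the enzymes, Hsd11b2 did not pass the filter, and H6pd had log2 fold changes of -0.14 in db/db and -0.03 in STZ-HFD. Hsd11b1 was low, at 0.51 ± 0.30 CPM in db/+ and 1.86 ± 0.41 CPM in db/db (SD, n = 3 each). These groups did not overlap, but it was not called (log2 fold change 2.04, SE 0.59, adjusted p = 0.075 by limma). In STZ-HFD its log2 fold change was 0.23 (SE 0.42). Ptges3, the p23 cochaperone that keeps the receptor ready to bind hormone, stood at 20.8, 18.5 and 19.5 CPM in db/+ and 37.7, 35.3 and 45.3 CPM in db/db. It was just past 2-fold (log2 fold change 1.01, SE 0.25, adjusted p = 0.043 by limma) and without overlap, and the call was lost without any 1 of the 6 db/db and db/+ libraries or without Con+Veh replicate 4 (adjusted p up to 0.14 over the fits that left out 1 library). Ptges3 was called in 5 of 13 other alternatives, and by neither edgeR nor DESeq2. Fkbp4, the cochaperone that replaces FKBP5 on the receptor on hormone binding, was lower in STZ-HFD (log2 fold change -3.22, SE 0.59, adjusted p = 0.010 by limma). That call rested on a pair of control libraries, since Con+Veh stood at 24.5, 34.6, 665 and 1048 CPM and STZ-HFD at 25.7, 52.5, 55.6 and 77.3 CPM, and the groups overlapped. Without Con+Veh replicate 3 the adjusted p was 0.30, and without replicate 4 it was 0.16 by limma, and the call was also lost without STZ-HFD replicate 3. These fits called 17, 18 and 18 genes in all in STZ-HFD, against 441 with every library. Fkbp4 was called in 9 of 13 other alternatives, and not by edgeR. Among abundant other genes of the list, Hsp90ab1, Ncor1 and Hspa8 had log2 fold changes from -0.41 to 0.04 over both models, and none of these was called.

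Fkbp5 (GRCm38, chr17:28399094-28517527, minus strand) encodes the cochaperone that holds the receptor in its low-affinity state, and its induction by the receptor forms a feedback loop. It stood at 19.9, 22.8 and 13.4 CPM in db/+ and 38.6, 33.2 and 22.0 CPM in db/db. The lowest db/db library was just under the highest db/+ library, and Fkbp5 was not called (log2 fold change 0.70, SE 0.31, 95% interval 0.05 to 1.35, adjusted p = 0.20 by limma). Con+Veh libraries had 21.0, 13.3, 22.2 and 21.1 CPM, while STZ-HFD libraries fell into a low pair at 14.1 and 20.8 CPM and a high pair at 40.7 and 37.5 CPM. STZ-HFD thus differed by 0.43 on the log2 scale (SE 0.28, 95% interval -0.16 to 1.01). With the muscle level as a covariate Fkbp5 was at 1.495 in db/db (adjusted p = 0.054 by limma) and at -0.35 in STZ-HFD.

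Zbtb16 (chr9:48654297-48836222, minus strand), the zinc finger repressor PLZF and a gene with strong induction by glucocorticoids in several cell types, was the one member below its control on average in db/db. It stood at 79.0, 91.7 and 64.8 CPM in db/+ and at 71.1, 70.3 and 74.0 CPM in db/db, with a log2 fold change of -0.14 (SE 0.27, 95% interval -0.71 to 0.44). STZ-HFD gave its largest departure, with 33.6, 110, 90.0 and 73.1 CPM against 47.7, 33.9, 44.7 and 61.5 CPM in Con+Veh. Of the STZ-HFD libraries 3 were above every control and the first was below every control. Its log2 fold change was 0.70 (SE 0.23, 95% interval 0.22 to 1.18), and the adjusted p of 0.10 by limma missed the threshold. Without STZ-HFD replicate 1 it was 0.84 with an adjusted p of 0.026 by limma, still under 2-fold. Skeletal muscle markers moved with this result, with 10 of 10 positive and 4 called higher in STZ-HFD, summed levels of 9864 to 25903 CPM against 9182 to 12075 CPM and none at 0. With the muscle level as a covariate the log2 fold change of Zbtb16 in STZ-HFD was 0.07. The difference between the models was 0.83 (SE 0.36, adjusted p = 0.23 by limma).

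Zbtb16 was the one gene of the 10 with all its annotated transcripts in the transcript table and at least 10% of its estimated counts on each of 2 transcripts. Zbtb16-201 took 69.0% ± 14.6 of them in db/+ and 74.1% ± 11.8 in db/db (SD, n = 3 each, exact permutation p = 0.50, two-sided). The share was 56.8% ± 2.7 in Con+Veh and 61.2% ± 8.5 in STZ-HFD (SD, n = 4 each, exact permutation p = 0.49, two-sided). Both adjusted p were 0.50, and 3 against 3 libraries cannot go below 0.10.

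Tsc22d3 (chrX:140539528-140600659, minus strand), which encodes the anti-inflammatory protein GILZ, stood at 67.9, 69.1 and 38.9 CPM in db/+ and 76.5, 62.8 and 91.8 CPM in db/db. The groups overlapped, and the log2 fold change was 0.38 (SE 0.26, 95% interval -0.16 to 0.93). In the second cohort it ran from 41.5 to 60.6 CPM in Con+Veh and from 39.4 to 79.6 CPM in STZ-HFD, a log2 difference of 0.20 (SE 0.22). Klf9 (chr19:23141226-23168134, plus strand), a Krüppel-like repressor that dampens later hormone responses, stood at 82.4, 72.0 and 64.7 CPM in db/+ and 75.3, 87.5 and 116 CPM in db/db. Klf9 differed by 0.33 (SE 0.24) on the log2 scale in db/db and by 0.32 (SE 0.20) in STZ-HFD, with intervals that reach no further than 0.84 and 0.74. The adjusted p of these 4 values ran from 0.41 to 0.68 by limma.

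Cebpd (chr16:15887286-15891031, plus strand), a bZIP factor of acute stress and of early fat cell formation, was the least abundant, with 34 to 618 counts a library. It stood at 5.2, 3.5 and 3.2 CPM in db/+ and at 3.3, 3.4 and 9.7 CPM in db/db, so that a single library carried the difference. Cebpd had a log2 fold change of 0.33 (SE 0.44) in db/db, which turned to -0.18 without db/db replicate 3. In STZ-HFD, at 3.6 to 9.0 CPM against 0.9 to 5.3 CPM, it was 0.28 (SE 0.47, 95% interval -0.71 to 1.28). Cebpd in STZ-HFD stood at 0.96 by edgeR, 0.99 by DESeq2 and 1.42 without quality weights, with adjusted p of 0.46, 0.36 and 0.38. At this spread a 2-fold change of Cebpd could not be told from none. Cebpd shares 562 exon bases with Spidr on the other strand, which held 1745 counts against 2779 for Cebpd.

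Sgk1 (chr10:21882184-21999903, plus strand) encodes a kinase of the AKT family that regulates ion channels and FOXO factors. It has 6 RefSeq promoter windows, and 1 of them, shown here as the single window with the full GRE palindrome among 15 windows of the 7 genes that had one, carries it in capitals.
Sgk1, chr10:21993640-21993939: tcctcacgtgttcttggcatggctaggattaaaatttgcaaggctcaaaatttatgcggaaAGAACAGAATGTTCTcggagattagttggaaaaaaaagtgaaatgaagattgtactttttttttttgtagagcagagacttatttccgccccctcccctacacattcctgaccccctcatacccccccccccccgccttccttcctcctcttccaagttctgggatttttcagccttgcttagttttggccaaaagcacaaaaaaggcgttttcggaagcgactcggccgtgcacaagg
The palindrome, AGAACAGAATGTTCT at chr10:21993701-21993715 on the plus strand, begins 189 bases before that start site and occurs in 3 of all 32851 windows (0.00913%). No window of Fkbp5, Tsc22d3, Klf9 or Errfi1 held it, and Zbtb16, Cebpd and Nr3c1 had no window to search.

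Sgk1 stood at 39.1, 33.3 and 32.3 CPM in db/+ and 40.0, 52.5 and 51.4 CPM in db/db, with no overlap but a gap of less than 1 CPM between the nearest libraries. Sgk1 had a log2 fold change of 0.45 (SE 0.31, 95% interval -0.21 to 1.12, adjusted p = 0.42 by limma). In the second cohort both groups spread widely, from 17.7 to 45.0 CPM in Con+Veh and from 10.9 to 34.9 CPM in STZ-HFD. Its log2 fold change there was 0.15 (SE 0.28) and took the other sign under edgeR (-0.066) and DESeq2 (-0.049). Errfi1 (chr4:150853919-150868892, plus strand), a feedback inhibitor of the EGF receptor, had the tightest values of the 10 in Con+Veh, 24.9 to 28.0 CPM. It was at 22.2 to 26.6 CPM in db/+ and at 29.8 to 35.3 CPM in db/db, without overlap (log2 fold change 0.40, SE 0.23, adjusted p = 0.32 by limma). In STZ-HFD, 3 libraries at 14.1, 17.1 and 17.5 CPM lay under every control and the fourth, at 29.5 CPM, above every control. The log2 fold change of Errfi1 in STZ-HFD was -0.32 (SE 0.20, adjusted p = 0.44 by limma), and the difference of the models was -0.72 (SE 0.30, adjusted p = 0.23 by limma).

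**Figure D3:**
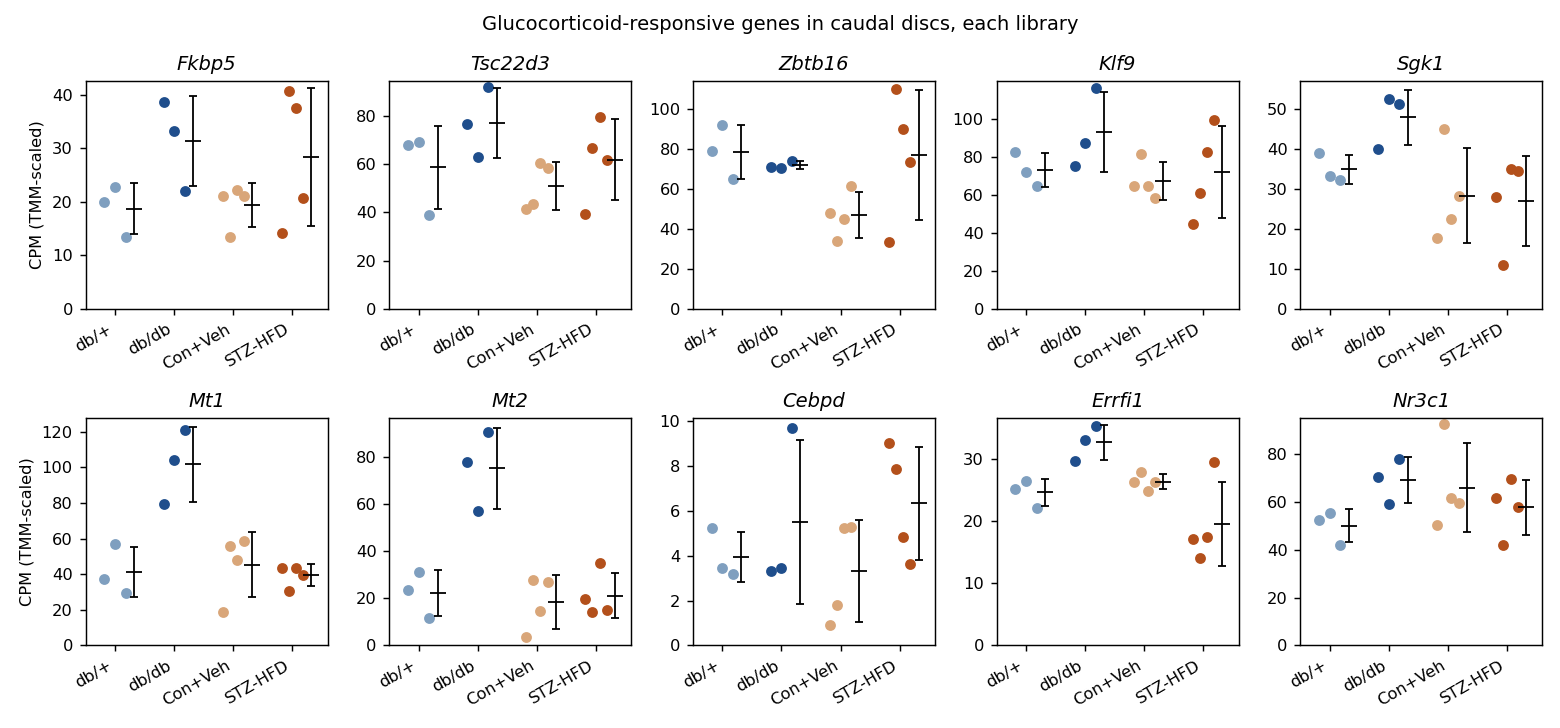
Level of each of the 10 genes in every library (CPM, TMM-scaled, y axis from 0) in the 4 groups, with the mean and SD as black bars (n = 3 in db/+ and db/db, n = 4 in Con+Veh and STZ-HFD). All 3 db/db libraries lie above all db/+ libraries for Mt1, Mt2, Sgk1, Errfi1 and Nr3c1, whereas the STZ-HFD and Con+Veh libraries overlap in every panel.

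Per kilobase of exon the metallothioneins were the most abundant of the 10 in every group. In db/+ the mean was 37.6 ± 16.6 CPM per kb for Mt2 and 33.1 ± 11.4 CPM per kb for Mt1, which did not differ beyond their spread (SD, n = 3). Klf9, Zbtb16 and Tsc22d3 came next, at 15.2 ± 1.8, 14.9 ± 2.5 and 13.5 ± 3.9 CPM per kb, again within their spread. Sgk1, Errfi1 and Nr3c1 formed a lower set at 6.5 to 7.1 CPM per kb, followed by Fkbp5 at 1.98 ± 0.51 and Cebpd at 1.06 ± 0.30 CPM per kb. In db/db the order was the same but for Zbtb16, which came after Tsc22d3, and Mt2 reached 128 ± 29 CPM per kb and Mt1 81.5 ± 16.9 CPM per kb (SD, n = 3). The order of Mt2 and Mt1 depends on the exon lengths, 1246 bases for Mt1, its whole gene span, and 588 for Mt2. Without scaling by length, Mt1 was above Mt2 on average in every group, at 102 against 75.0 CPM in db/db. In Con+Veh and STZ-HFD the metallothioneins again led, at 31.0 to 36.5 CPM per kb, and Fkbp5 and Cebpd again came last.

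Mice of a group differed in the levels of several of the 10 genes at once. Library db/+ 3 was the lowest of its group for all 10 genes, whereas it was lowest for 33.3% of all genes tested. Library db/db 3 was the highest of its group for 8 of 10 genes (33.6% of all genes). In Con+Veh, replicate 1 was lowest for 6 of 10 (36.0% of all genes), and that library also had the lowest quality weight of the 14 (0.27, against up to 3.05). After the group means were removed, log2 CPM of Fkbp5, Zbtb16 and Tsc22d3 varied together over the 14 libraries (Pearson r 0.63 to 0.83 for the 3 pairs). The same held for Mt1, Mt2, Sgk1 and Nr3c1 (r 0.57 to 0.89 for the 6 pairs). Between Fkbp5 and Sgk1 r was -0.50, and between Zbtb16 and Nr3c1 -0.35. These values are descriptions over libraries that share depth, cell content and base composition with every gene in them.

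**Figure D4:**
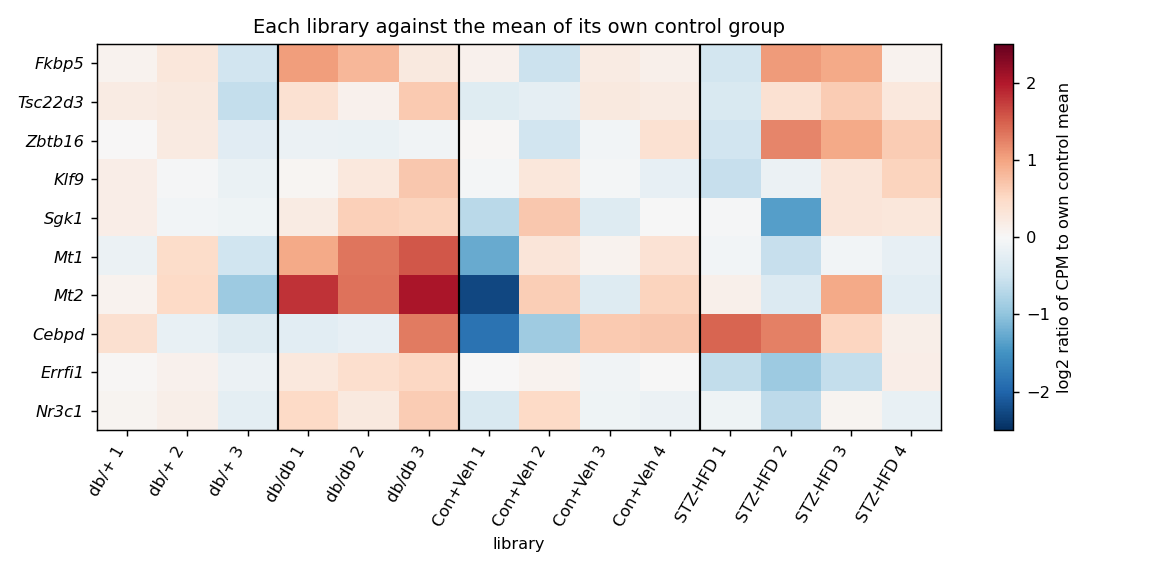
Log2 ratio of each library's CPM to the mean of its own control group (db/+ or Con+Veh) for the 10 genes, red above and blue below, with black lines between the groups. The Mt1 and Mt2 rows are red in all 3 db/db libraries, the db/+ 3 column is blue throughout, and STZ-HFD 1 differs from the other 3 STZ-HFD libraries in Zbtb16.

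The genes nearest in pattern to each member, by Pearson r of log2 CPM over the 14 libraries, differed from member to member. For Mt1 they were Cfl1 (r 0.96), Mt2 (0.93) and Aplp2 (0.91), and for Mt2 they were Tmed3 (0.95), Scarb2 (0.94) and Cfl1 (0.93). For Sgk1 they were Eri1, Lipo3 and Actr3 (0.93 to 0.94), for Nr3c1 Rbm18, Ppp6c and Rps13 (0.90), and for Errfi1 1500011B03Rik, Klf7 and Tent2 (0.89 to 0.91). For Tsc22d3 they were Nid1, Cds2 and Sspn (0.85 to 0.89), for Zbtb16 Crim1, Tgm2 and Fam234a (0.84 to 0.88), and for Klf9 Gpc4, Tmbim6 and Banf1 (0.86 to 0.87). Cebpd was nearest to Slc6a15, Syp and Bicdl1 (0.86 to 0.87), and Fkbp5 to Col5a3, Mcam and Fads3 (0.77 to 0.80). Apart from the metallothionein pair, no member was among the 3 nearest of another. Group means were not removed for this ranking, so level differences between groups and cohorts entered r. With group means removed, r with Mt2 was 0.95 for Cfl1, 0.94 for Tmed3 and 0.86 for Scarb2.

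Other genes known to be induced by glucocorticoids were read from a list of 33, of which Il1r2 and Tat did not pass the filter. In db/db 2 of 31 were called higher (Rgs2 and Pck1) and 0 lower, against 1.23% and 0.432% of all genes. Positive were 24 of 31 (all genes, 47.3%), with a median log2 fold change of 0.27 against -0.04 over all genes. In STZ-HFD 3 of 31 were called higher (Pdk4, Pck1 and Trim63) and 1 lower (Bcl6), against 1.30% and 1.31% of all genes. Here 16 of 31 were positive (all genes, 47.2%), with a median of 0.02 against -0.04 over all genes. Pck1, the rate-limiting enzyme of gluconeogenesis and of glyceroneogenesis in fat, was thus called in both models. It rose from 4.5, 1.5 and 3.7 CPM in db/+ to 7.4, 12.9 and 5.8 CPM in db/db (log2 fold change 1.57, SE 0.38, adjusted p = 0.043 by limma). In STZ-HFD it rose from 3.9, 4.4, 5.4 and 2.5 CPM to 12.3, 14.5, 16.2 and 13.9 CPM (log2 fold change 1.82, SE 0.36, adjusted p = 0.015 by limma). With the adipocyte level as a covariate the adjusted p of Pck1 was 0.86 in db/db and 0.13 in STZ-HFD by limma. Its call held in 5 of 14 fits that left out 1 library in db/db and in 11 of 14 in STZ-HFD, where it was lost without Con+Veh replicate 3 or 4 or STZ-HFD replicate 3. The fits that lost it in STZ-HFD called 17, 18 and 18 genes in all, against 441 with every library. Over 13 other alternatives Pck1 was called in 8 in db/db and in 10 in STZ-HFD.

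Pdk4, the kinase that shuts glucose carbon out of the pyruvate dehydrogenase reaction, gave the largest change of the list in STZ-HFD. It stood at 20.3, 13.0, 20.3 and 10.9 CPM in Con+Veh and at 85.4, 170, 121 and 92.4 CPM in STZ-HFD, with no overlap. Its log2 fold change was 2.80 (SE 0.28), and Pdk4 was called in all 14 fits that left out 1 library and all 13 other alternatives, edgeR and DESeq2 included. With the muscle level as a covariate it was 2.58 with an adjusted p of 0.011. In db/db, at 9.2, 10.3 and 17.5 CPM against 7.1, 9.6 and 5.4 CPM, Pdk4 was not called (log2 fold change 0.69, SE 0.33, adjusted p = 0.23 by limma), and the models differed by 2.11 (adjusted p = 0.025).

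Trim63, the muscle ubiquitin ligase MuRF1, stood at 7.8 to 9.6 CPM in Con+Veh and 16.4 to 22.3 CPM in STZ-HFD (log2 fold change 1.36, SE 0.25, adjusted p = 0.010 by limma). With the muscle level as a covariate the change of Trim63 was 0.68 on the log2 scale (adjusted p = 0.41 by limma), and the call was lost without Con+Veh replicate 3 or 4 or STZ-HFD replicate 3 or 4 (adjusted p up to 0.21). Those fits without 1 library called 17, 18, 18 and 164 genes in all, against 441 with every library. The log2 fold change of Trim63 stayed between 1.29 and 1.39 over the fits that left out 1 library. Trim63 was called in 7 of 13 other alternatives, and not by edgeR. Rgs2, a brake on G protein signalling, rose in db/db from 4.6, 3.5 and 3.4 CPM to 21.6, 12.4 and 9.8 CPM (log2 fold change 1.86, SE 0.33, adjusted p = 0.016 by limma), a call lost without db/+ replicate 2 or db/db replicate 1 (adjusted p up to 0.064). These fits called 21 and 37 genes in all in db/db, against 281 with every library. Of 13 other alternatives 10 called Rgs2, and edgeR, the fit without quality weights and the adipocyte covariate did not. Bcl6, a repressor of inflammatory genes, fell in STZ-HFD from 78.4 to 136 CPM over the controls to 30.7 to 56.2 CPM (log2 fold change -1.01, SE 0.21, adjusted p = 0.020 by limma), just past 2-fold and called in 6 of 14 fits that left out 1 library (adjusted p up to 0.15). Bcl6 was called in 4 of 13 other alternatives, and not by edgeR. The most abundant other genes, Txnip, Per1, Foxo1 and Pnpla2, were not called in either model, with log2 fold changes of -0.47 to 0.50.

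Genes that glucocorticoids repress, among them cytokines, chemokines, matrix proteases and bone matrix genes, were read from a list of 18. Of these, 9 passed the filter, and 0 were called in either model. Their median log2 fold change was -0.35 in db/db and -0.66 in STZ-HFD, against -0.04 over all genes in each model. The lists were mixed in sign, with 3 of 9 positive in either model (all genes, 47.3% and 47.2%). For db/db these were Vcam1 (1.11), Mmp13 (0.72) and Mmp3 (0.43), with adjusted p of 0.19, 0.25 and 0.59 by limma. Every db/db library was above every db/+ library for Mmp13. For STZ-HFD they were Bglap (0.51), Nos2 (0.10) and Vcam1 (0.05). Macrophage markers, 8 in all and none at 0 in any library, summed to 69.4 to 141 CPM in STZ-HFD against 103 to 237 CPM in Con+Veh with 3 called lower. Disc and cartilage markers, 5 of 9 called lower, summed to 685 to 1475 CPM in STZ-HFD against 1564 to 3347 CPM in Con+Veh, and of 5 osteoblast markers, which include Col1a1 and Bglap of this list, Ibsp was called lower. In db/db 0 of 5 osteoblast markers and 1 of 9 disc and cartilage markers were positive, with none called. The part of these cells in the medians was not tested. Col1a1, the most abundant, went from 16562 ± 1471 to 12357 ± 3403 CPM in db/db (SD, n = 3 each) and from 1839 ± 524 to 1274 ± 705 CPM in STZ-HFD (SD, n = 4 each). Il6, Il1b, Tnf and Ccl2 averaged 0.12, 0.34, 0.38 and 0.34 CPM and could not be tested.

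**Figure D5:**
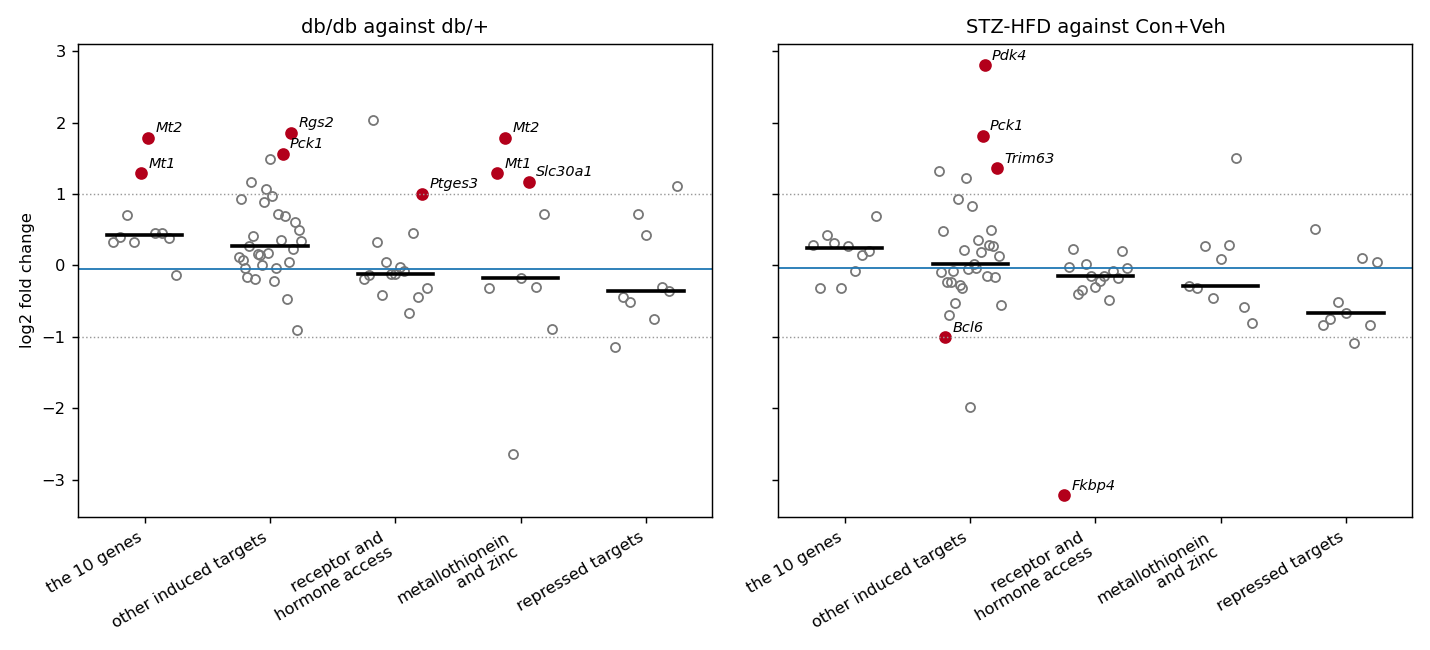
Log2 fold changes (y axis) of the genes tested in 5 lists, in db/db (left) and STZ-HFD (right), with called genes filled and named, black bars at the list medians, a blue line at the median of all genes and dotted lines at 2-fold. Mt1, Mt2, Slc30a1, Rgs2, Pck1 and Ptges3 are called in db/db, and Pdk4, Pck1, Trim63, Bcl6 and Fkbp4 in STZ-HFD.

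Paralogs of the 10 genes were read as a list of 18, with 15 tested. In db/db 0 were called (all genes, 1.66%), while in STZ-HFD Fkbp4 and Klf4 were called lower (all genes, 1.31% lower). Klf4, a barrier and vascular Krüppel-like factor, went from 62.2 to 166 CPM over the controls to 44.5 to 94.8 CPM (log2 fold change -1.17, SE 0.23, adjusted p = 0.013 by limma), and the groups overlapped. That call was lost without Con+Veh replicate 3 or 4 or STZ-HFD replicate 3 or 4 (adjusted p up to 0.23). Those fits called 17, 18, 18 and 164 genes in all, against 441 with every library. Over the fits that left out 1 library the log2 fold change of Klf4 ran from -1.31 to -0.96. Klf4 was called in 7 of 13 other alternatives, and by neither edgeR nor DESeq2. Klf6 was called in neither model, but its response differed between them by -1.26 (adjusted p = 0.033 by limma), with log2 fold changes of 0.78 in db/db and -0.48 in STZ-HFD. Tsc22d1, from the family of Tsc22d3, stood at 212 ± 27 CPM in db/+ and 337 ± 13 CPM in db/db (SD, n = 3 each, log2 fold change 0.67, adjusted p = 0.22 by limma). Nr3c2, the mineralocorticoid receptor, which also binds corticosterone, stood at 21.6 ± 2.5 and 15.9 ± 0.4 CPM in the same groups (log2 fold change -0.44, adjusted p = 0.23 by limma). Of 9 immediate early genes tested, which respond to handling and to tissue collection, 0 were called in either model. The summed level of all 10 on the list was 186 to 330 CPM in db/+, 218 to 342 CPM in db/db, 153 to 251 CPM in Con+Veh and 103 to 196 CPM in STZ-HFD.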

How the data were processed

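RNA of 14 libraries, 1 per mouse, was amplified and sequenced, and the authors aligned the reads with STAR to GRCm38 and deposited raw counts per gene from featureCounts. The authors also deposited estimated counts per transcript from Salmon, which hold the main transcripts of 6 of the 10 genes, and the others were not used here. Strand setting and Salmon index are not given in the sources used here. Groups came from the GEO labels. Libraries held 16076908 to 58943169 counts, and ribosomal RNA rows stayed in the totals. Genes above 1 CPM in at least 3 libraries were fitted in R 4.3.3 with limma 3.58.1 (voom with quality weights, TMM factors) on all 14 libraries, with Benjamini-Hochberg adjustment over 16915 genes. Alternatives were edgeR 4.0.16, DESeq2 1.42.0, other scaling, filters, weights, covariates, a replicate block and leaving out each library. Estimated counts were rounded to whole numbers for that test. On simulated counts of 16915 genes with 200 changed by 2 on the log2 scale, the fit recovered 49.0% in the db/db comparison and 54.0% in the STZ-HFD comparison. The simulated counts used each gene's mean over all groups and held no differences in library quality or cell content. Recovery of smaller changes was not simulated. No pair of replicates agreed within sampling noise. Members and gene lists were chosen with earlier results of these data known. Named were the 10 members, every gene called in either model in the 6 gene lists other than cell markers (receptor and hormone access, other induced, repressed, zinc, paralogs, immediate early), at most 4 others per list by highest mean CPM, and the 3 genes nearest to each member. Klf6, Lcn2, Mt3, Hsd11b1, Hsd11b2, H6pd, Vcam1, Mmp3, the cytokines and the cell markers fall outside that rule and were named after their values were seen. Alternatives in the closing section include leaving out both libraries named RIP (Con+Veh 2 and STZ-HFD 4), a suffix that the labels do not explain.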

Additional observations from a re-analysis of the deposited data

Results flagged for a closer look

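Of 20 groups of 4 libraries checked for a library standing apart, 1 was found, about as many as chance gives at 1 in 20. Fkbp5 in Con+Veh replicate 2 was at 13.3 CPM, with the nearest control at 21.0 CPM and the farthest at 22.2 CPM.

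The responses of 5 genes differed between the models by the limma test of the difference with Benjamini-Hochberg adjustment, each given as STZ-HFD minus db/db on the log2 scale. The difference was -1.62 for Mt1 (adjusted p = 0.039) and 2.11 for Pdk4 (adjusted p = 0.025). For Trim63 it was 2.26 (adjusted p = 0.018), where the log2 fold change was positive for 0 of 10 skeletal muscle markers in db/db and for 10 of 10 in STZ-HFD. With the muscle level as a covariate the difference of Trim63 was 0.85 (adjusted p = 0.53 by limma). Klf6 differed by -1.26 (adjusted p = 0.033), and Lcn2, a lipocalin induced by glucocorticoids and by inflammation, by -3.47 (adjusted p = 0.039). Lcn2 stood at 9.2 ± 6.5 CPM in db/+ and 24.2 ± 7.2 CPM in db/db (SD, n = 3 each), and at 11.8 ± 11.9 CPM in Con+Veh and 3.1 ± 1.2 CPM in STZ-HFD (SD, n = 4 each). Over the fits that left out 1 library, the call held in 3 of 14 for Mt1, 8 of 14 for Pdk4, 12 of 14 for Trim63, 5 of 14 for Klf6 and 3 of 14 for Lcn2. Neither edgeR nor the fit without quality weights called any of these differences.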

How the results depend on the processing

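The count of 10 genes called was the least stable result. In db/db 2 were called, against 0 by edgeR, 1 by DESeq2, 0 without quality weights and 0 with the muscle or the adipocyte covariate, and 0 to 2 over the fits that left out 1 library. Over all genes these fits called 281, 0, 211, 9, 51 (muscle) and 1 (adipocyte), and 21 to 392 when 1 library was left out. In STZ-HFD 0 of the 10 were called under every alternative run, with 17 to 997 genes called in all. The difference of the models gave 1, against 0 by edgeR, DESeq2, no filter on low counts, no quality weights, either covariate or without both RIP libraries, and 0 to 1 when 1 library was left out. Over all genes these fits called 300, 5, 254, 242, 3, 99 (muscle), 8 (adipocyte) and 114, and 4 to 425 without 1 library. In the difference of the models 2 were called with the replicate block, and 2 with the GC trend removed as well, of 1234 and 796 genes called in all. Same-numbered libraries did not deviate together (r 0.19, -0.28 and -0.19 in the db/db cohort and -0.04, -0.26, -0.08 and -0.06 in the other), while r reached 0.45 between libraries of different number. With group means of 3 or 4 libraries removed, such values cannot exclude a pairing. The reported fit used none.

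Leaving out 1 library gave, in db/db, 0 to 1 genes called in the receptor list, 0 to 2 among the other induced genes and 0 to 3 in the zinc list. In STZ-HFD it gave 0 to 1, 1 to 5 and, for the paralogs, 0 to 2. Over these fits the genes called in all ran from 21 to 392 in db/db and from 17 to 642 in STZ-HFD. With no fold minimum the zinc list had 4 genes in db/db and the other induced genes 6 in STZ-HFD. The Zbtb16-201 share difference ran from -3.33 to 11.9 percentage points in db/db, turning without db/+ replicate 1, and from 0.240 to 6.61 in STZ-HFD.

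No gene that turned sign was called in the comparison where it did so. In db/db, Tsc22d3 went to -0.025 and Cebpd to -0.14 with the adipocyte covariate. Zbtb16 went to 0.16 with the GC trend removed, 0.18 with the replicate block as well and 0.37 with the muscle covariate. Without 1 library, Zbtb16 ran from -0.24 to 0.0031 and Cebpd from -0.18 to 0.58. In STZ-HFD the muscle covariate turned Fkbp5 to -0.35, Tsc22d3 to -0.45 and Mt2 to -0.81, and the difference of the models for Zbtb16 to -0.30. Mt2 was -0.38 in the transcript table and -0.15 to 0.53 without 1 library. Sgk1 was -0.066 by edgeR, -0.049 by DESeq2, -0.12 without quality weights, -0.0055 with the GC trend removed and -0.12 without both RIP libraries, and ran from -0.18 to 0.42 without 1 library. The cause of these changes was not tested.

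Over all genes, 208 were called higher and 73 lower in db/db, 158 and 53 by DESeq2, 7 and 2 without quality weights, and 0 by edgeR (1891 at an unadjusted p under 0.05). In STZ-HFD, 220 and 221 became 122 and 150, 3 and 16, and 6 and 23. Removing the GC trend moved the share of higher calls in db/db from 74.0% to 87.4%, and dropping the filter moved it in STZ-HFD from 49.9% to 73.1%. The 95% interval of Cebpd held both no change and 2-fold in each model. The intervals of Sgk1 in db/db (-0.21 to 1.12) and of Fkbp5 (-0.16 to 1.01) and Mt2 (-0.57 to 1.13) in STZ-HFD also held both.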
